A study of Mus musculus with 2 samples.

Results

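The 81 genes described here are nuclear genes for subunits of the oxidative phosphorylation (OXPHOS) complexes. They were chosen by symbol (Nduf with a subunit letter and number, Sdha to Sdhd, and symbols that begin with Uqcr, Cox4 to Cox8 or Atp5) among the 32285 genes of the deposited matrices. Of 85 matching symbols, 1 carried the ending -ps and was left out. Another 3, the muscle or testis forms Cox6a2, Cox8b and Cox8c, had under 50 unique molecular identifiers (UMIs, the tags by which captured transcripts were counted) over all cells. Complex I, NADH dehydrogenase, held 35 of the genes, complex II, succinate dehydrogenase, held 4, complex III, cytochrome bc1, held 8, complex IV, cytochrome c oxidase, held 17, and complex V, ATP synthase, held 17. Ndufa4 and its paralogue Ndufa4l2 were counted with complex IV, where the protein sits despite its name.

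Single cells of the mouse corticoseptal boundary, where callosal axons cross the midline, were profiled at E16.5 in 1 wild-type (WT) library and in 1 library of genotype Tcf4f/f;Emx1Cre (Tcf4cKO, here cKO). Tcf4 encodes a bHLH transcription factor, and Cre expressed from Emx1 acts mainly in the dorsal telencephalic lineage, from which GABAergic neurons, microglia and vascular cells mostly do not arise. After filtering, 8634 WT and 10142 cKO cells remained with medians of 9660 and 8152 UMIs and 2.80% and 3.19% mitochondrial UMIs, and 21 barcodes occurred in both libraries. How many embryos made up a library is not given in the sources used here. With 1 library a genotype there was no test between genotypes, and every 95% interval below (Poisson for a level, conditional binomial for a ratio, Clopper-Pearson for a share) covers counting error only. Levels (CPM) are UMIs scaled to 1000000 UMIs of a cell class, a count of molecules that needs no correction for gene length.

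Oxidative phosphorylation passes electrons from NADH and succinate through complexes I to IV to oxygen and uses the proton gradient this builds to make ATP at complex V. Most of its subunits are encoded in the nucleus and imported, while a small core is encoded by mitochondrial DNA, so the complexes need products of both genomes. In the developing forebrain, glycolysis is prominent in radial glia and oxidative metabolism becomes more prominent as neurons differentiate.

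Promoters of these genes are known for sites of NRF1, ETS factors (GABP) and YY1. RefSeq promoter windows of GRCm38.p6, 250 bases before to 50 after a start, matched 67 of the 81 genes with 72 windows. The NRF1 core GCATGCGC, searched on both strands with its reverse complement GCGCATGC, was in 10 of the 72 windows (13.9%) and in 2.71% of all 32851 windows. The ETS core CCGGAAG or CTTCCGG was in 23.6% against 8.86%, and the YY1 letters AAGATGGC or GCCATCTT in 13.9% against 2.75%. The E-box CAGCTG, a letter string that E proteins such as TCF4 can bind, was in 6.94% against 16.3%. Median GC content was 57.5% in the members' windows and 52.7% in all windows, so base composition differed as well. A letter match is a description and not a bound site.

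The stretches below are up to 100 bases before the RefSeq start, 5′ to 3′ on the gene's strand, moved or shortened so that no exon of GENCODE vM21 lies in them. Ndufa11 is shown as the most abundant gene whose stretch then held the NRF1 core, and capitals mark that core with its overlapping reverse complement. Cox6b1 and Cox6b2 are shown because the cells used these paralogues unequally. In neither stretch of the pair was any of the searched letters present. The whole promoter window of Cox6b1 did hold the ETS core, outside the printed stretch, and that of Cox6b2 held none of the searched letters. The stretch of Cox6b1 ends 37 bases before its RefSeq start.
Ndufa11, chr17:56717686-56717761, plus strand: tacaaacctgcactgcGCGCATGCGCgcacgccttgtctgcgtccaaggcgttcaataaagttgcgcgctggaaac
Cox6b1, chr7:30626152-30626251, minus strand: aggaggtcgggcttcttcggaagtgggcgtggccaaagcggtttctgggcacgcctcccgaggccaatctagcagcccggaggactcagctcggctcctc
Cox6b2, chr7:4753095-4753194, minus strand: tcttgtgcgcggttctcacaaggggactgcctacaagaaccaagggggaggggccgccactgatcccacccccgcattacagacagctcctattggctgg

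Levels over all cells, as the mean of both libraries, ran from 0.464 CPM for Cox7b2 to 1036 CPM for Cox4i1, with a median of 286 CPM. Genes of complex II, the smallest complex and the only one wholly encoded in the nucleus, had a median of 73.3 CPM. The medians of complexes I, III, IV and V were 195, 285, 402 and 426 CPM. The 5 lowest genes were all alternative isoforms of complex IV: Cox7b2 with 86 UMIs in all, Cox7a1 with 322, Cox4i2 with 722, Ndufa4l2 with 1431 and Cox6b2 with 2488. Well under the limit of 50 UMIs were Cox6a2 with 13, Cox8b with 3 and Cox8c with 1. The 81 genes lie on 19 different chromosomes. Because UMIs were read at 3′ ends, transcripts with near-identical copies may share reads: in 17 of the 81 genes at least 1 stretch of 90 bases within the last 400 of a transcript occurred in another gene, most of all in Atp5l (70.7% of its stretches), Ndufs3 (47.3%), Atp5g2 (45.7%), Atp5h (43.6%) and Cox7c (33.6%). Absolute levels of these genes are uncertain.

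Clustering of both libraries together, without the 81 genes among the variable genes, gave 38 clusters. Of these, 7 matched no marker list clearly and stayed unnamed (1472 WT and 1296 cKO cells). In the 6 classes with over 100 cells in each library, astroglia, cycling progenitors, intermediate progenitors, glutamatergic neurons, GABAergic neurons and Cajal-Retzius cells, every marker on the class's list was detected in both libraries. Detection did not tell classes apart: all 15 astroglia markers were also detected in glutamatergic and GABAergic neurons. In CPM, each class's list summed highest in that class among the 6, in both libraries. The same lists named the clusters, so this describes the classes and does not test the names. Tcf4 UMIs, as a check of the labels, came to 1499 CPM over all WT cells and 1139 CPM over all cKO cells. Their ratio was 0.760. By class it was 0.597 in intermediate progenitors, 0.626 in Cajal-Retzius cells, 0.669 in cycling progenitors and 0.683 in glutamatergic neurons. Astroglia were at 0.848 and GABAergic neurons at 0.911. Whether the counted 3′ end lies in the deleted part of Tcf4 is not given in the sources used here. Mitochondrially encoded mRNAs were at a higher level in cKO in all 6 classes, by 1.10 to 1.16 times.

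The 81 genes together took a similar share of the transcriptome in every large class. In WT they made up 2.81% of the UMIs of Cajal-Retzius cells, 2.66% of astroglia, 2.62% of cycling progenitors, 2.57% of intermediate progenitors, 2.56% of GABAergic neurons and 2.45% of glutamatergic neurons. In cKO the shares were 2.84%, 2.52%, 2.56%, 2.50%, 2.58% and 2.35% in the same classes. The class named Cajal-Retzius cells, after the early-born reelin-secreting neurons, was highest and glutamatergic neurons lowest in both libraries. That class held cluster 31, led by Ndnf and Reln (74 WT and 63 cKO cells, 2.77% in each library). The rest was cluster 27, led by Gng8 (114 and 101 cells, 2.83% and 2.89%). None of the 10 leading genes of cluster 27 was on the class's marker list. The ratio of glutamatergic neurons to astroglia was 0.922 in WT (interval 0.918 to 0.926) and 0.933 in cKO (0.929 to 0.937). The classes between these ends changed places: astroglia were above GABAergic neurons in WT and below them in cKO. Taking mitochondrial, cytosolic ribosomal and haemoglobin transcripts out of the total turned the order of Cajal-Retzius cells and astroglia in WT, from a log2 ratio of 0.08 to -0.03. Cytosolic ribosomal transcripts took 11.7% of UMIs in WT Cajal-Retzius cells and 19.0% in WT astroglia.

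Smaller groups of cells spanned a wider range. The cluster led by Ttr and Folr1, genes of the choroid plexus epithelium that secretes cerebrospinal fluid, devoted 3.45% of its UMIs to the 81 genes in WT and 3.71% in cKO (35 and 24 cells). Microglia, the resident immune cells of the brain, were lowest at 1.98% and 2.099% (52 and 58 cells). Oligodendrocyte progenitors were at 2.97% and 2.82% (37 and 39 cells). A cluster with both endothelial and mural markers, called the vascular cluster below and left unnamed by the marker rule, was at 2.83% and 2.65% (56 and 38 cells). It also held 2209 CPM in WT against 1261 CPM in cKO of leptomeningeal fibroblast markers (8 of 8 detected) and 35009 against 63759 CPM of red cell transcripts (6 of 6), and their part in its values was not tested. Free RNA, read from droplets with 10 to 100 UMIs, held 2.94% and 3.16% of the same genes, so these transcripts were also present outside cells. It was estimated at 2.26% of a neuron's UMIs in WT and 1.19% in cKO. The estimate is the haemoglobin share of UMIs in neurons over that in free RNA. Neurons with over 0.1% haemoglobin UMIs were left out, which can lower the estimate.

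**Figure D1:**
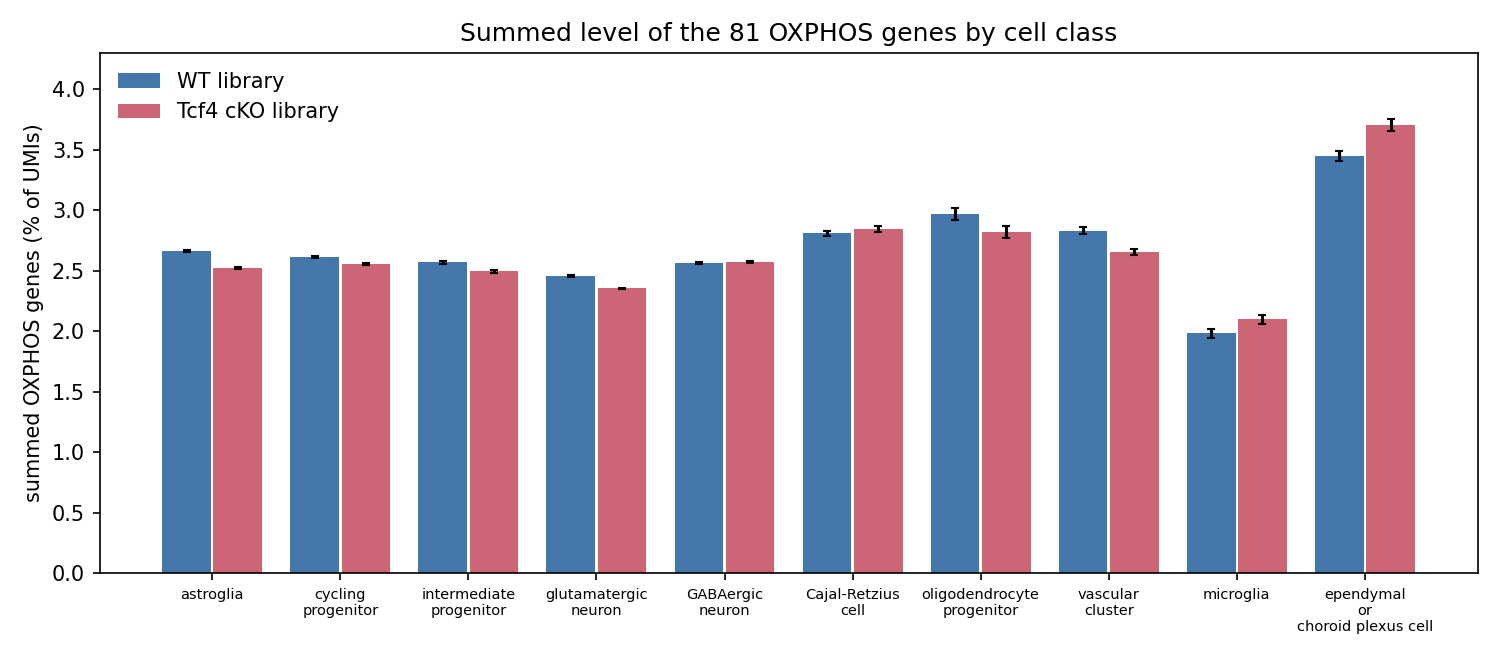
Summed UMIs of the 81 OXPHOS genes as a percent of all UMIs (vertical axis, from 0) in 10 cell groups (horizontal axis), WT in blue and cKO in red, with 95% Poisson intervals as error bars and 1 library a genotype. The choroid plexus cluster is highest at 3.45% and 3.71% and microglia lowest at 1.98% and 2.099%.

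Single OXPHOS genes varied little between classes. With 5 CPM added to every level, as in all ratios between classes below, the median ratio of the highest over the lowest of the 6 classes was 1.36 over the 81 genes, against 2.103 over the 5057 genes that reached 50 CPM in some class. Only 5 of the 81 genes passed 2-fold, against 53.2% of those 5057 genes: Cox6b2, Ndufb2, Ndufc2, Atp5g2 and Ndufv3. Cox6b2 stayed under 50 CPM in each of the 6 classes. Of the 76 OXPHOS genes that did reach 50 CPM in some class, 4 passed 2-fold, and their median ratio was 1.34. Relative to astroglia, 6 of 77 genes with enough UMIs lay past 1.5-fold in 1 direction in both libraries in glutamatergic neurons, where 37% of all genes did. In GABAergic neurons the count was 4 of 77 against a background of 37.7%, and in Cajal-Retzius cells 7 of 77 against 36.2%. In intermediate progenitors and in cycling progenitors it was 1 of 77, against 25.2% and 15.2% of all genes. In each contrast the OXPHOS genes were past the limit less often than all genes, a difference that was not tested. The background shares were not matched for level.

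Among complex I genes, Ndufc2 (chr7:97400003-97407802, plus strand), a membrane-arm subunit and the most abundant of the 35, was higher in astroglia and both progenitor classes than in the neuronal classes. Astroglia held 737 CPM of it in WT and 687 CPM in cKO, 695 and 679 CPM in cycling progenitors, and 634 and 668 CPM in intermediate progenitors. Glutamatergic neurons held 386 and 373 CPM, Cajal-Retzius cells 422 and 451 CPM, and GABAergic neurons 328 and 343 CPM. The level in astroglia was 2.23 times that in GABAergic neurons in WT and 1.99 times in cKO, and no neuronal class reached astroglia or either progenitor class in either library. Its level over the 6 classes was most like that of Nek6, Eif3i, Gng5, Rps27l and Ciao2a, with Pearson correlations between 0.980 and 0.992 in both libraries, a likeness over 6 points only.

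Other complex I genes were highest in Cajal-Retzius cells. Ndufb2, an accessory subunit of the membrane arm, had 337 CPM in WT and 309 CPM in cKO Cajal-Retzius cells against 182 and 161 CPM in astroglia, 1.83 and 1.89 times as much, and was lowest in cycling progenitors at 140 and 133 CPM. Ndufv3, an accessory subunit of the NADH-oxidising module, had 310 and 302 CPM there against 196 and 177 CPM in astroglia. Ndufa1 had 228 and 191 CPM against 140 and 125 CPM, and Ndufa11, whose promoter stretch is printed above, 344 and 367 CPM against 256 and 231 CPM. Ndufa12 was lower in glutamatergic neurons, at 153 and 148 CPM, than in astroglia, at 237 and 235 CPM. The genes most like Ndufb2 over the 6 classes were A330076H08Rik, Pld3, Tmem176b, Dstn and Saraf, with correlations between 0.970 and 0.989. Ndufb9 ran from 328 to 476 CPM and Ndufa7 from 333 to 474 CPM over all classes and libraries. The class means of Ndufs5 and Ndufa2 spanned 1.55-fold and 1.53-fold.

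In complex II, which also works in the citric acid cycle, the flavoprotein Sdha was at 88.8 CPM in WT against 95.5 CPM in cKO astroglia and at 55.5 and 58.2 CPM in glutamatergic neurons, so that astroglia were 1.55 and 1.59 times higher. The membrane anchor Sdhd (chr9:50596357-50603812, minus strand) was at 64.7 and 54.9 CPM in astroglia and 41.3 and 32.4 CPM in glutamatergic neurons. The iron-sulfur subunit Sdhb ran the other way and was lowest in astroglia in WT, at 158.5 CPM, against 176.5 CPM in glutamatergic neurons, 200.5 CPM in GABAergic neurons and 226 CPM in Cajal-Retzius cells. The other anchor, Sdhc, stayed between 62.7 and 87.5 CPM. The ratio of Sdhb to Sdha UMIs therefore differed between classes, although the subunits assemble as a single enzyme.

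Complex III genes showed no class difference past 1.5-fold in both libraries relative to astroglia. Uqcrh, the hinge protein and the most abundant of the 8, was highest in intermediate progenitors at 805 CPM in WT against 831 CPM in cKO, and lowest in Cajal-Retzius cells at 542 and 563 CPM. Uqcrq ran from 334 to 426 CPM and Uqcr11 from 300 to 392 CPM.

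Complex IV has tissue-specific isoforms of several subunits, and here the common form dominated nearly everywhere. Cox4i1 ranged from 898 to 1208 CPM over the 6 classes, Cox7c from 764 to 962 CPM and Cox8a from 639 to 1048 CPM. Cox5a, a matrix-side subunit, was the only gene past 1.5-fold upward in GABAergic neurons, at 673 and 718 CPM against 439 and 470 CPM in astroglia. Cox6a1 was highest in Cajal-Retzius cells at 416 and 403 CPM and lowest in astroglia at 237 and 219 CPM. Cox7a2 was at 457 CPM in WT astroglia and 640 CPM in WT glutamatergic neurons, while Cox7a2l, which helps complexes III and IV associate into supercomplexes, was at 367 and 319 CPM. Cox7a2l thus made up 44.4% of Cox7a family UMIs in WT astroglia and 33.2% in WT glutamatergic neurons, and 48.1% and 35.8% in cKO. The muscle form Cox7a1 took at most 0.565% of that family in the 6 classes.

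The rarer complex IV isoforms were unevenly spread over the clusters. Cox6b2 (chr7:4751792-4753094, minus strand), best known from testis, was most abundant beside the common Cox6b1 in the choroid plexus cluster, where it had 230 CPM in WT and 291 CPM in cKO. That was 26.5% and 29.6% of Cox6b UMIs, against 0.417% and 0.482% in glutamatergic neurons. The choroid plexus cluster held 14.3% of all 2488 Cox6b2 UMIs with 0.314% of the cells. Astroglia were next among the classes, at 43.0 CPM in WT against 26.5 CPM in cKO, and within them Cox6b2 was concentrated in the cluster led by Fgf17 and Fgf8 (99.9 and 99.5 CPM, cluster 24) and in the cluster with Foxj1 (57.1 and 56.7 CPM, cluster 11). These clusters held 14.95% and 13.83% of its UMIs, astroglial cluster 16 held 5.79%, and the unnamed clusters 12 and 13 another 14.67% and 5.63%. Free RNA held 10.7 and 12.04 CPM of it and was estimated at 2.26% and 1.19% of a neuron's UMIs, while glutamatergic and GABAergic neurons were at 2.35 to 2.57 CPM and Cajal-Retzius cells at 13.98 and 15.27 CPM. Over the 6 classes Cox6b2 was most like Lamp1, Lman1, Tspan3, Snhg3 and Mocs2, with correlations between 0.970 and 0.990.

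Ndufa4l2 (chr10:127514967-127517154, plus strand), a hypoxia-inducible paralogue of Ndufa4, had 86.4% of its 1431 UMIs in the vascular cluster, which held 0.501% of the cells. Its level there was 461 CPM in WT and 448 CPM in cKO, and it supplied 41.3% and 44.1% of the UMIs of the Ndufa4 pair. In the 6 large classes it took at most 0.426% of the pair. Cox4i2, the form of subunit IV known from lung and from oxygen-sensing cells, had 64.3% of its 722 UMIs in the same cluster, at 163 and 180 CPM, or 10.7% and 11.8% of Cox4i UMIs, and 9.56% and 8.31% in clusters 9 and 8. Both isoforms are known from pericytes, but these cells could not be divided into endothelial and mural cells: in 62 of the 94 cells the UMIs of the endothelial and mural marker lists lay within 3-fold of each other. Cells with more mural than endothelial marker UMIs had 752 and 627 CPM of Ndufa4l2, and the others 340 and 375 CPM. Among the 6 classes Cox4i2 was highest in astroglia and cycling progenitors, at 4.77 and 2.86 CPM in astroglia and 3.56 and 3.30 CPM in cycling progenitors, while free RNA held 3.71 and 3.31 CPM.

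In complex V the membrane ring of subunit c is encoded by Atp5g1, Atp5g2 and Atp5g3, which make the same mature protein with different import sequences. Atp5g2 (chr15:102662864-102672352, minus strand) was highest in astroglia and both progenitor classes, at 949 CPM in WT against 967 CPM in cKO astroglia, 1088 and 1099 CPM in cycling progenitors and 982 and 996 CPM in intermediate progenitors. It stood at 525 and 520 CPM in glutamatergic neurons, 522 and 516 CPM in GABAergic neurons and 503 and 563 CPM in Cajal-Retzius cells, so that these 3 classes stayed below the others. Its share of Atp5g UMIs was 59.6% to 63.6% in astroglia and both progenitor classes and 38.6% to 41.7% in the neuronal classes. Atp5g1 was at 361 and 364 CPM in astroglia and 432 and 410 CPM in glutamatergic neurons, and Atp5g3 at 282 and 267 CPM and 331 and 317 CPM. The family sum was thus lower in neurons. Atp5g2 is one of the genes with copies (45.7% of its stretches), and reads of those copies cannot be told apart from its own. The ring genes apart, Atp5e ran from 623 to 915 CPM and Atp5h from 526 to 725 CPM.

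**Figure D2:**
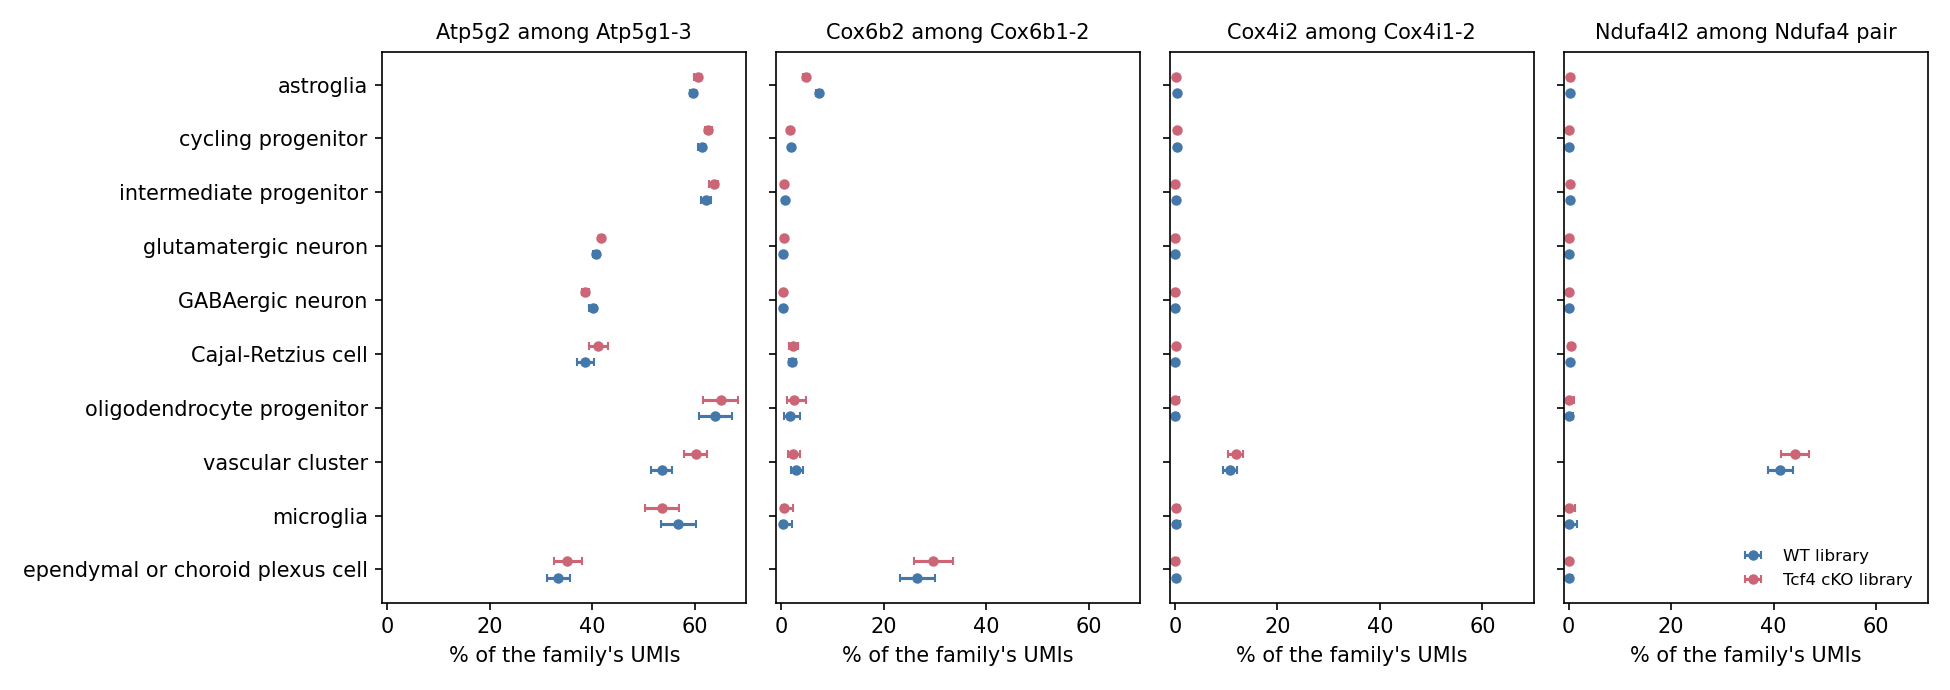
Share of a family's UMIs (horizontal axes, percent) taken by Atp5g2, Cox6b2, Cox4i2 and Ndufa4l2 in 10 cell groups (vertical axis), WT in blue and cKO in red, with 95% Clopper-Pearson intervals. Atp5g2 takes 59.6% to 63.6% in astroglia and both progenitor classes and 38.6% to 41.7% in the neuronal classes, Cox6b2 peaks in the choroid plexus cluster, and Cox4i2 and Ndufa4l2 peak in the vascular cluster.

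Between genotypes the 81 genes differed by a few percent. Summed over all cells they took 2.59% of UMIs in WT and 2.51% in cKO, a ratio of 0.968 (0.966 to 0.970). The ratio was 0.948 in astroglia (0.944 to 0.953), 0.959 in glutamatergic neurons (0.956 to 0.963), 0.971 in intermediate progenitors (0.964 to 0.977) and 0.977 in cycling progenitors (0.973 to 0.982). It was 1.004 in GABAergic neurons (1.000 to 1.009) and 1.013 in Cajal-Retzius cells (1.002 to 1.024). Astroglia, both progenitor classes and glutamatergic neurons thus lay below 1 and GABAergic neurons close to 1, but within clusters the GABAergic cells did not differ in direction from the others. The 9 GABAergic clusters all had a lower summed level in cKO, with ratios from 0.934 to 0.998 and 7 intervals below 1.

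Cluster 30 was led by Nwd2, Gbx1 and Nefm and had the highest level among GABAergic clusters, 3.08% of UMIs in WT and 3.07% in cKO. It held 20 WT and 153 cKO cells. Without it the GABAergic ratio was 0.9885 (0.984 to 0.993). Over the 32 clusters with at least 20 cells of each library, the summed level was lower in cKO in 28, with 23 intervals below 1 and 3 above. Those 3 were the choroid plexus cluster (1.074), microglia (1.058) and Cajal-Retzius cluster 27 (1.020). Cajal-Retzius cluster 31, the one led by Ndnf and Reln, was at 0.9995 (0.982 to 1.018).

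**Figure D3:**
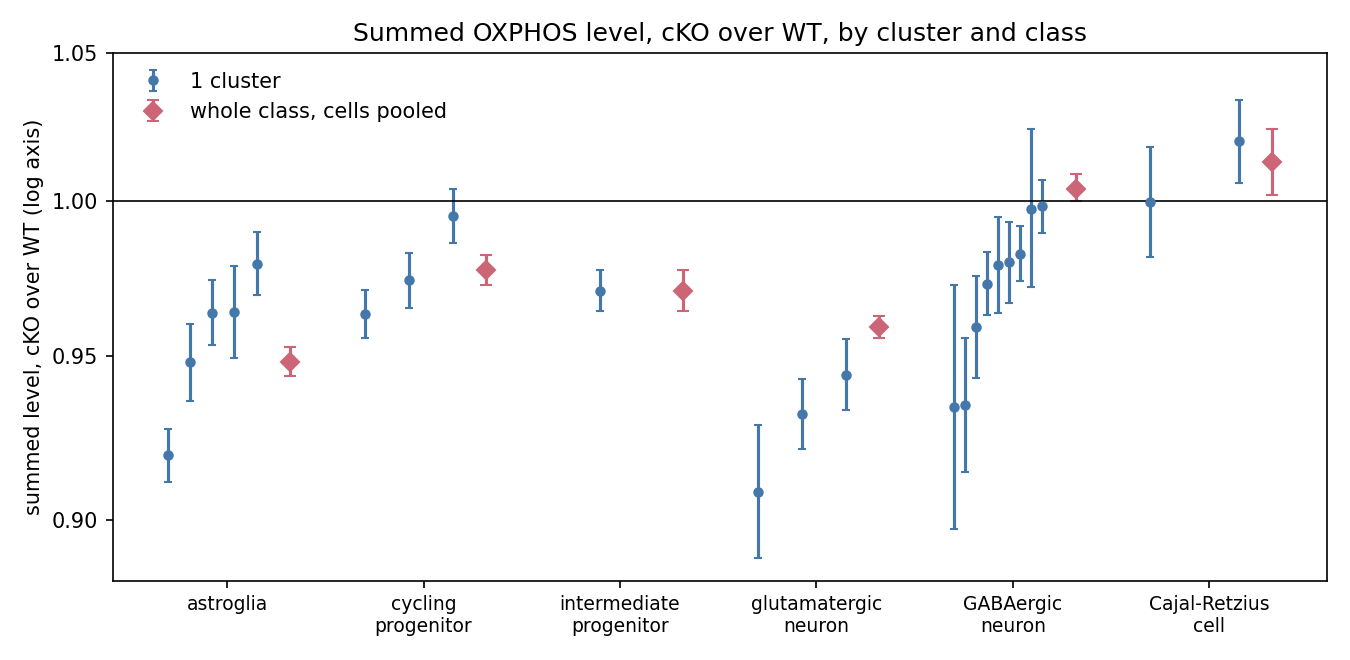
Summed level of the 81 OXPHOS genes in cKO over WT (vertical axis, log scale) for every cluster with at least 20 cells of each library (blue) and for the pooled class (red diamond), with 95% conditional binomial intervals. All 9 GABAergic clusters lie below 1, from 0.934 to 0.998, while the pooled class lies at 1.004.

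Of the 8 glutamatergic clusters, 6 had under 30 cells of 1 library (clusters 2, 3, 18, 19, 22 and 26, with 1478 of the 1898 WT and 2071 of the 3024 cKO cells), so most of the class consisted of different clusters in WT and cKO. In clusters 5 and 15, which had more cells of both, the 81 genes took 2.29% and 2.60% of UMIs in WT and 2.16% and 2.42% in cKO, ratios of 0.944 (0.933 to 0.955) and 0.932 (0.921 to 0.943). Cells of cKO also had fewer UMIs in each of the 6 classes, for example a median of 8213 against 10409 in glutamatergic neurons, and more mitochondrial UMIs. After thinning each cell to 3000 UMIs the log2 ratio was -0.067 in astroglia, where the unthinned value was -0.076. Taking mitochondrial, cytosolic ribosomal and haemoglobin UMIs out of the total moved it to -0.044 in astroglia and from -0.043 to -0.020 in intermediate progenitors, while glutamatergic neurons went from -0.060 to -0.056. Centred on the median of all genes, the log2 ratio was -0.023 in intermediate progenitors and -0.022 in cycling progenitors, where the uncentred value was -0.033. With shared clusters weighted equally it was -0.109 in glutamatergic neurons and -0.042 in GABAergic neurons. Shared here means at least 20 cells of each library, so the 3 glutamatergic clusters were 5, 15 and 2, the last with 27 WT and 904 cKO cells. In Cajal-Retzius cells thinning moved it from 0.018 to 0.038.

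Hardly any single gene passed a log2 ratio of 0.32 in either direction between genotypes, the limit used for a call. In astroglia 2 of 78 genes did, Cox6b2 and Cox5b, both lower in cKO, where 11.6% of all genes passed in either direction. In cycling progenitors 1 of 77 did, Cox5b, against 4.05%, and in Cajal-Retzius cells 1 of 76, Sdhd, against 11.6%. None of 76 passed in intermediate progenitors (8.29% of all genes), none of 77 in glutamatergic neurons (8.4%) and none of 76 in GABAergic neurons (4.5%). Over all cells 1 of 80 passed, Cox6b2, against 3.78%. All genes here means genes with at least 100 UMIs in the class. Over all cells these were 14696 genes, of which 3513 reached 50 CPM, while 74 of the 80 OXPHOS genes did. The background thus held many genes at lower levels, and the shares were not matched for level. Small differences mostly pointed down in astroglia, both progenitor classes and glutamatergic neurons. In astroglia 69 of 78 genes were lower in cKO, with a median log2 ratio of -0.08. In glutamatergic neurons 62 of 77 were lower, with a median of -0.05. The medians of all genes in these 2 classes were -0.03 and -0.0036. Those counts are 88.5% and 80.5% of the members, beside 55.7% and 51.1% of all genes that were lower in the same classes. Cycling progenitors had 55 of 77 (71.4%) lower and intermediate progenitors 56 of 76 (73.7%), beside 53.9% and 54.7% of all genes. In GABAergic neurons 33 of 76 (43.4%) were lower, beside 47.8% of all genes, with a median of 0.01 for these genes and 0.01 for all genes. Cajal-Retzius cells went the other way, with 29 of 76 (38.2%) lower beside 52.7% of all genes.

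**Figure D4:**
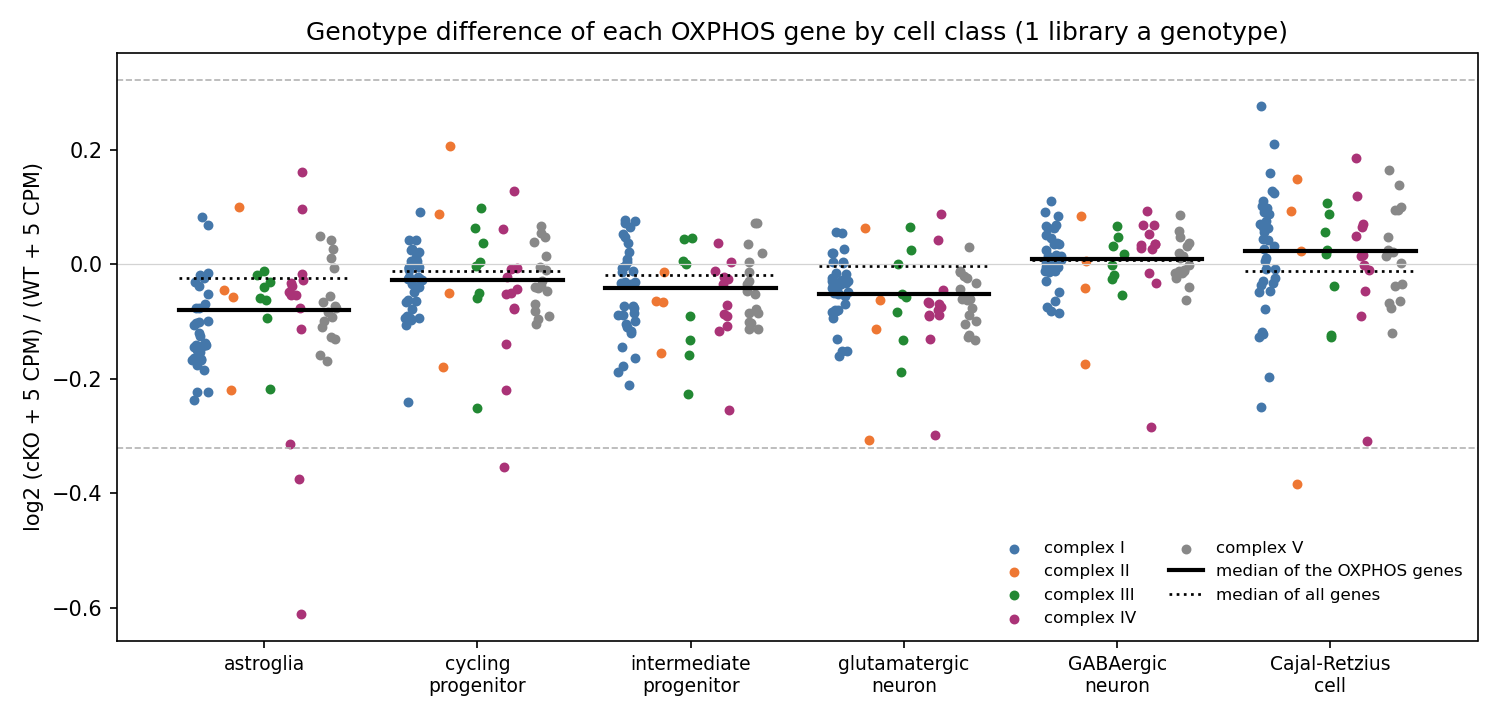
Log2 ratio of cKO over WT with 5 CPM added (vertical axis) for each OXPHOS gene with at least 100 UMIs, by cell class (horizontal axis) and coloured by complex. Solid bars are medians of the OXPHOS genes, dotted bars medians of all genes, and dashed lines the limit of 0.32. Cox6b2 at -0.61 is the lowest point in astroglia.

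By complex, astroglia had the widest spread. Complex I genes were lower in 33 of 35 cases with a median log2 ratio of -0.14, and their sum had a ratio of 0.919 (0.911 to 0.927). Complexes III, IV and V summed to ratios of 0.957, 0.966 and 0.959 there, and complex II to 0.971 (0.934 to 1.009). Ndufb4 was lowest among complex I genes, at 207 CPM in WT against 175 CPM in cKO. Ndufa13, also known as GRIM-19, was at 384 and 328 CPM. In glutamatergic neurons complex IV had a ratio of 0.942 (0.936 to 0.949) and complex II, with fewer UMIs, 0.943 (0.914 to 0.973), while complex I stood at 0.974 (0.968 to 0.981).

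Cox5b (chr1:36691449-36693681, plus strand), which binds zinc and is the partner of Cox5a in complex IV, was lower in cKO in every class. It had 426 CPM in WT and 327 CPM in cKO astroglia, 439 and 342 CPM in cycling progenitors, 428 and 358 CPM in intermediate progenitors, 417 and 338 CPM in glutamatergic neurons, 489 and 401 CPM in GABAergic neurons and 546 and 440 CPM in Cajal-Retzius cells. No class of the cKO library reached its WT level. The ratio was 0.769 in astroglia (0.738 to 0.800) and 0.836 in intermediate progenitors (0.792 to 0.884), the ends of the range over the 6 classes. The ratio was 0.819 in GABAergic neurons (0.794 to 0.846), 0.853 in the vascular cluster (0.760 to 0.957) and 0.812 in the choroid plexus cluster (0.691 to 0.953), and free RNA had a ratio of 0.816 (0.754 to 0.884). In microglia it was 0.933 (0.771 to 1.13). Of the 32 shared clusters 31 were lower in cKO, with 28 intervals below 1. Of the stretches in its transcripts' ends, 7.77% occurred in another gene. Cox5a, its partner, had ratios of 0.940 to 1.07 over the 6 classes.

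Ndufs6, a zinc-binding subunit of complex I, was at 265 and 226 CPM in WT and cKO astroglia, 230 and 206 CPM in glutamatergic neurons and 240 and 228 CPM in GABAergic neurons, and was lower in 31 of 32 clusters. Uqcrb, which binds ubiquinone in complex III, was at 351 and 301 CPM in astroglia, 267 and 234 CPM in glutamatergic neurons and 326 and 314 CPM in GABAergic neurons, and was lower in 30 of 32 clusters. Atp5j2, a subunit f of complex V, was at 526 and 479 CPM in astroglia and 469 and 465 CPM in GABAergic neurons, and was lower in 30 of 32. Free RNA followed for Ndufs6 at a ratio of 0.850 but not for Uqcrb, at 1.10, or Atp5j2, at 1.13. Uqcrb was also higher in the choroid plexus cluster of cKO, at 1.202 (1.03 to 1.40). Sdhd was at 41.3 and 32.4 CPM in glutamatergic neurons, a ratio of 0.785 (0.714 to 0.863), and at 44.0 and 38.4 CPM in GABAergic neurons, a ratio of 0.873 (0.785 to 0.970), and was lower in 28 of 32 clusters.

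In the other direction, Cox7a2l was at a higher level in cKO in each of the 6 classes. It had 367 CPM in WT and 410 CPM in cKO astroglia (1.12, 1.08 to 1.16), 308 and 337 CPM in cycling progenitors (1.09, 1.05 to 1.14) and 319 and 339 CPM in glutamatergic neurons (1.06, 1.03 to 1.10). In GABAergic neurons the values were 336 and 344 CPM, with an interval of 0.989 to 1.06 that includes 1, and the log2 ratio turned from 0.04 to -0.02 in 1 of 12 alternatives, the UMI minimum doubled. In intermediate progenitors the ratio was 1.026 (0.976 to 1.078), which also includes 1. It was lower in 2 of the 32 clusters. Other genes named for a high ratio had small ones: Atp5a1, the catalytic core's alpha subunit, was at 388 and 408 CPM in intermediate progenitors, and Atp5b, its beta subunit, at 431.5 and 453.5 CPM, both with intervals that include 1. In glutamatergic neurons Ndufb11 was at 242 and 252 CPM (1.04, 1.003 to 1.079) and Ndufb7 at 260 and 270 CPM (1.039, 1.003 to 1.076). On the low side Ndufa5 was at 170.5 and 147 CPM in intermediate progenitors, a ratio of 0.860. Sdha was at 84.3 and 98.0 CPM in cycling progenitors, a ratio of 1.16 (1.07 to 1.26), and lower in 11 of 32 clusters. Among the 3513 genes with at least 50 CPM over all cells, 1.05% were lower in cKO in 28 or more of the 32 clusters and 0.826% were higher in as many. Among the 74 OXPHOS genes at that level, 5 were lower (Atp5j2, Cox5b, Ndufa13, Ndufs6 and Uqcrb) and 1, Cox7a2l, was higher. The limit of 28 was chosen after the values were seen, and Sdhd lies under 50 CPM. The clusters share 2 libraries and their free RNA and are not replicates, so a direction kept across them says that it is common to a library, and library and genotype cannot be told apart.

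**Figure D5:**
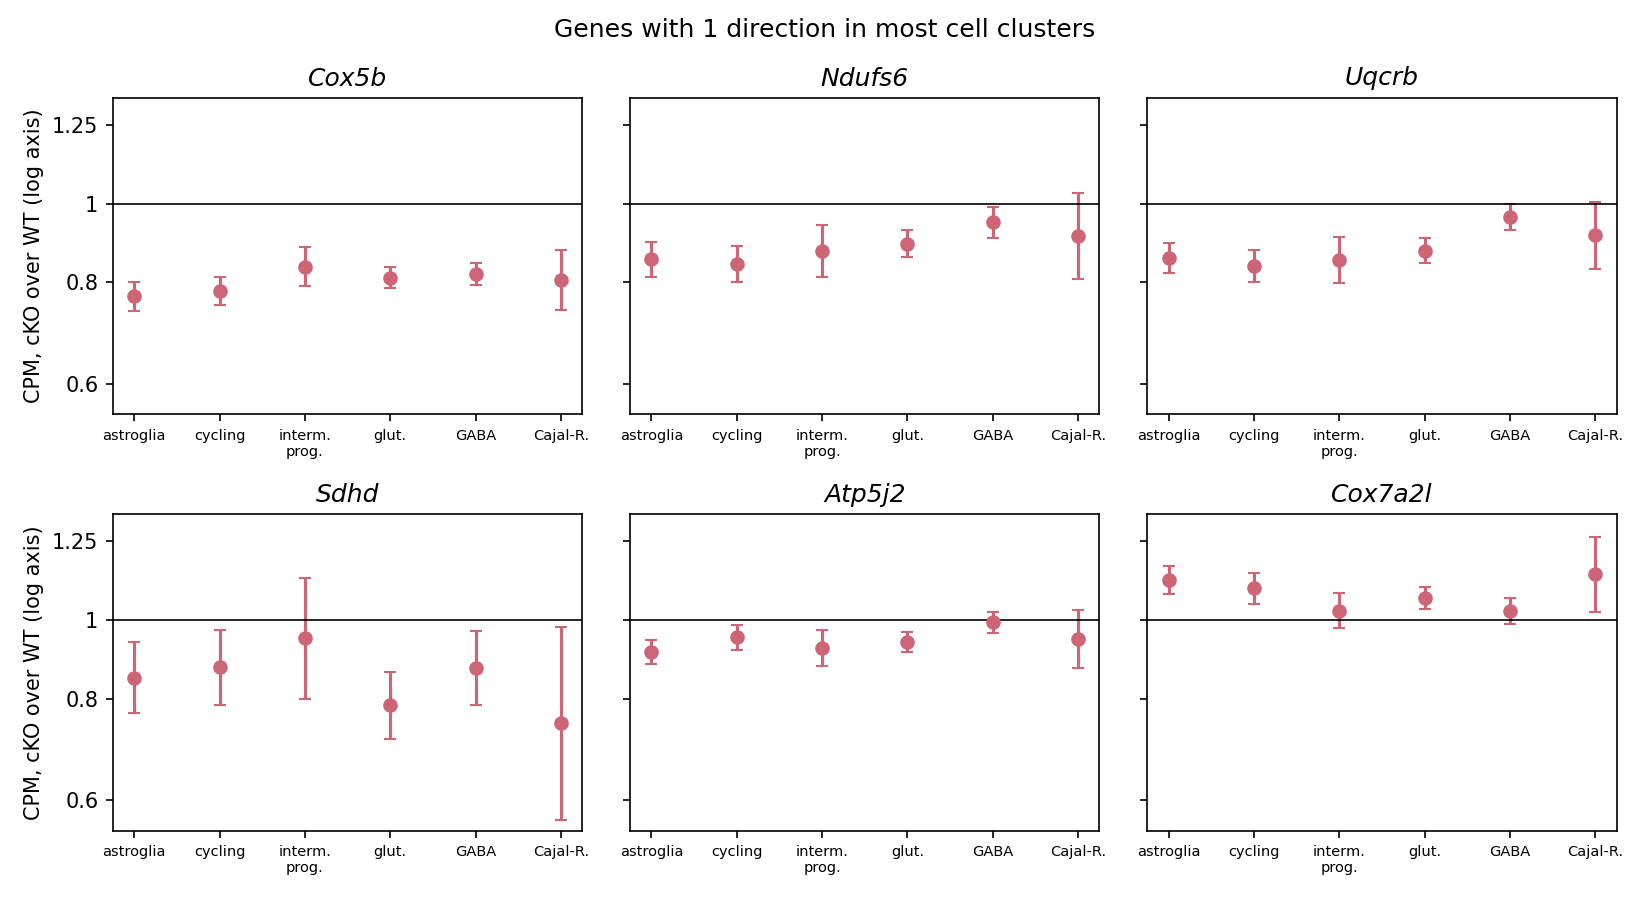
Ratio of CPM in cKO over WT (vertical axes, log scale) in 6 cell classes (horizontal axes) for Cox5b, Ndufs6, Uqcrb, Sdhd, Atp5j2 and Cox7a2l, with 95% conditional binomial intervals and 1 library a genotype. Cox5b lies between 0.769 and 0.836 in all 6 classes, GABAergic neurons included. Cox7a2l lies above 1, with intervals that include 1 in GABAergic neurons and intermediate progenitors, and turned below 1 in GABAergic neurons with the UMI minimum doubled.

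Astroglia of WT had 43.0 CPM of Cox6b2 and those of cKO 26.5 CPM, a ratio of 0.6145 (0.535 to 0.704), but it differed less within clusters 24 and 11. In cluster 24 the level was 99.9 CPM in WT and 99.5 CPM in cKO, a ratio of 0.995, and in cluster 11 it was 57.1 and 56.7 CPM, a ratio of 0.992. These clusters with high Cox6b2 held 290 and 399 cells of WT but 89 and 260 cells of cKO. With the 5 shared astroglial clusters weighted equally the log2 ratio of Cox6b2 was 0.01. In the choroid plexus cluster its ratio was 1.265 (1.02 to 1.57). Over the 32 shared clusters the ratio of Cox6b2 ran from 0.283 to 3.157, with 1 interval below 1 and 1 above.

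Of the 13 mitochondrially encoded mRNAs, which supply the other subunits of complexes I, III, IV and V, 10 were higher in cKO over all cells. Of all 14696 genes with enough UMIs, 5991 were higher. The highest ratio was that of mt-Co3 and the lowest that of mt-Nd6. The sum of the 13 had a ratio of 1.12 in astroglia and 1.10 in GABAergic neurons. In the smaller groups it was 1.105 in oligodendrocyte progenitors and 1.074 in the choroid plexus cluster. Microglia were at 0.984 (0.965 to 1.004) and the vascular cluster at 0.926 (0.915 to 0.937). Mitochondrial and nuclear transcripts of the same complexes therefore lay on opposite sides of 1 in astroglia, glutamatergic neurons and both progenitor classes. Of 15 complex I assembly genes 9 were lower in astroglia and 3 in GABAergic neurons, beside 55.7% and 47.8% of all genes, with Acad9 and Nubpl highest and Ndufaf3 and Ecsit lowest in these classes. The astroglial count is near the share of all genes. Assembly genes of complexes II to V summed to 0.929 in astroglia (0.911 to 0.947) and 1.004 in GABAergic neurons (0.987 to 1.021). The citric acid cycle genes had a ratio of 0.970 in astroglia (0.948 to 0.992), the mitochondrial ribosome 0.974 (0.965 to 0.982) and glycolysis 0.988 (0.977 to 0.9996). Glycolytic transcripts were at 4415 CPM in WT astroglia against 2179 CPM in WT glutamatergic neurons, a wider gap than for the 81 OXPHOS genes. The 81 genes were kept out of the variable genes used for clustering. Aldoc, which encodes a glycolytic enzyme and is counted in the glycolytic sum, was on the marker list that named astroglia. It was also among the leading genes of astroglial cluster 8. How much of the glycolytic gap followed from the way the classes were defined was not tested. Regulators of mitochondrial genes, among them Nrf1, Gabpa, Yy1 and Tfam, had 5 of 19 genes (26.3%) lower in cKO astroglia, beside the 55.7% of all genes, and a ratio of 1.06 (1.03 to 1.09), and in GABAergic neurons 1.01 (0.979 to 1.03).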

How the data were processed

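Per the file headers, the authors deposited count matrices written by Cell Ranger 7.1.0, while the submitters' processing notes name version 2.1.1 and the build mm10. Each value is a count of UMIs per gene and barcode, read at 3′ ends. Barcodes with at least 3348 (WT) and 3341 (cKO) UMIs, 500 genes and at most 10% mitochondrial UMIs were kept. Scrublet calls removed 330 and 526 doublets. Library totals were 116998498 and 121321247 UMIs. Cells were clustered with scanpy 1.11.5 (2000 variable genes, 30 components, 15 neighbours, resolution 1) and named from marker lists by a minimum marker sum of 8, set after the clusters were seen. Counts were summed by class and library. Genes with at least 100 UMIs entered ratios with 5 CPM added, and a genotype call meant a log2 ratio past 0.32. Genes named are isoform families, the 3 highest of each complex, the 3 highest and lowest ratios of each class by the bound nearest to 1, the 10 largest class ratios, the Sdh genes, and the genes most like the first 3 of those 10. Genes lower or higher in most clusters were added after values were seen. The summing code was tested on simulated data. The members and lists were chosen with earlier results of these data known. With 1 library a genotype no test was made.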

Additional observations from a re-analysis of the deposited data

Results flagged for a closer look

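The summed log2 ratio of the OXPHOS genes, cKO over WT, lay below 0 in astroglia, cycling progenitors, intermediate progenitors and glutamatergic neurons and above 0 in GABAergic neurons and Cajal-Retzius cells. These opposite directions drew attention to 8 differences, none of which was tested, since each class has 1 library a genotype. Against GABAergic neurons the difference was -0.083 for astroglia, -0.039 for cycling progenitors, -0.049 for intermediate progenitors and -0.066 for glutamatergic neurons. Against Cajal-Retzius cells it was -0.095, -0.051, -0.061 and -0.078 in the same order. The GABAergic direction was the opposite without cluster 30, at -0.017. Of the Cajal-Retzius clusters, 27 was at a ratio of 1.020 and 31, led by Ndnf and Reln, at 0.9995.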

How the results depend on the processing

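No paired analysis was possible because each genotype has 1 library, and for the same reason no replicate could be left out. The summed log2 ratio of cKO over WT was -0.076 in astroglia, -0.033 in cycling progenitors, -0.043 in intermediate progenitors, -0.060 in glutamatergic neurons, 0.006 in GABAergic neurons and 0.018 in Cajal-Retzius cells. In GABAergic neurons it turned to -0.003 with doublet calls kept, -0.002 with unnamed clusters added to the nearest class, -0.0004 when centred on the median of all genes, -0.042 with shared clusters weighted equally and -0.017 without cluster 30. With the UMI minimum doubled it was 0.019 there, -0.087 in astroglia, -0.054 in intermediate progenitors and -0.054 in glutamatergic neurons. Astroglia were at -0.044 without mitochondrial, ribosomal and haemoglobin UMIs, -0.051 when centred, -0.067 thinned to 3000 UMIs and -0.067 with equal clusters. Cycling progenitors were at -0.024, -0.022 and -0.025 under the first 3 of these, intermediate progenitors at -0.020 and -0.023 under the first and second and -0.060 with doublets kept. Glutamatergic neurons were at -0.087 with doublets kept, -0.083 at resolution 2 and -0.049 with the members among the variable genes. They were at -0.109 both with equal clusters and from clusters 5 and 15 alone. The equal clusters were 5, 15 and 2, so these values share cells and are not independent. Thinned Cajal-Retzius cells were at 0.038. The restrictions to clusters 5 and 15 and to GABAergic cells without cluster 30 were chosen after seeing the data.

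The log2 level of glutamatergic neurons over astroglia was -0.117 in WT and -0.100 in cKO. In WT it was -0.133 at resolution 0.5, -0.126 with unnamed clusters added, -0.159 with the members among the variable genes, -0.191 without mitochondrial, ribosomal and haemoglobin UMIs and -0.124 thinned. In cKO it was -0.122, -0.107, -0.128, -0.202 and -0.122 in that order, -0.083 with the UMI minimum doubled, -0.122 with doublets kept and -0.131 at resolution 2. For Cajal-Retzius cells over astroglia, 0.078 in WT and 0.173 in cKO, the values were 0.055 and 0.137 at resolution 0.5, 0.064 and 0.158 with the members among the variable genes, 0.052 and 0.157 thinned, and -0.034 and 0.029 without those UMIs, which turned the WT direction. With the UMI minimum doubled the cKO value was 0.187.

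Counts past a log2 ratio of 0.32 became 2 in cycling progenitors at resolution 2 and with unnamed clusters added. In glutamatergic neurons they became 1 with doublets kept, at resolution 2, thinned, with a pseudocount of 1 CPM and with equal clusters. In Cajal-Retzius cells the count was 5 thinned and 0 at 500 UMIs. Past 1.5-fold, counts were 1 in astroglia, 0 in cycling progenitors and 0 in Cajal-Retzius cells. Class counts were 3 in cycling and 3 in intermediate progenitors with unnamed clusters added, 0 and 0 at 500 UMIs, and 1 in glutamatergic and 1 in GABAergic neurons past 2-fold. The Cox6b2 ratio in astroglia turned to 0.014 with shared clusters weighted equally. The cause of these changes was not tested. Cox5b was below 0 in all 72 values run, from -0.487 to -0.191.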
